A study of Mus musculus with 69 samples.

Results

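H3K79me2, dimethylation of histone H3 at lysine 79, was mapped by chromatin immunoprecipitation (ChIP) in the nucleus accumbens of male mice exposed to early life stress (ELS) and of male mice reared under Standard conditions. The authors deposited 1 annotated peak list per rearing group, and these 2 lists are compared here. The lists stand for 18 of the 69 samples of the series, 9 ELS and 9 Standard H3K79me2 ChIP libraries. The other samples are 10 ELS and 9 Standard input libraries and 32 RNA libraries, 8 each of ELS Dot1l knockdown, ELS GFP, Standard Dot1l overexpression and Standard GFP. The ChIP libraries carry no genotype in the labels, and all came from frozen punches of whole tissue. The labels state neither the age of the mice nor the stress procedure, nor whether a library held 1 animal or several. A distinct peak was defined by its chromosome, start and end, and each peak was joined to the protein-coding genes that its list names for it. With 1 list per group there is no replicate and no test of the lists, so every difference between them is a description of these lists. The fold enrichment and q-value of a peak are the authors' own values.

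H3K79me2 is written by DOT1L, the only known methyltransferase for this residue, which sits on the face of the nucleosome and not on a histone tail. The mark lies on the bodies of transcribed genes, mostly downstream of the start site, and DOT1L travels there with proteins of the transcription elongation machinery. In medium spiny neurons, the main cells of the accumbens, the series asks how stress early in life acts on this mark. Because tissue holds many cell types, fewer cells that carry the mark and less mark per cell cannot be told apart.

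The lists place the mark downstream of start sites and leave most of the short promoter windows used here bare. By the lists' own classes, 7505 ELS peaks (7.06%) and 8592 Standard peaks (7.29%) were at promoters within 1 kb. Of the 4 promoters shown here, 3 had no peak and 1 was covered in part. The windows run from 250 bases before to 50 bases after the start in RefSeq (GRCm38.p6, the assembly that mm10 names), 5′ to 3′ on the gene's strand, with each CG dinucleotide in capitals. Dot1l itself (chr10:80754953-80755252, plus strand), Dock10 (chr1:80758504-80758803, minus strand) and Oprm1 (chr10:6758343-6758642, plus strand) had no peak over this window in either list. Xrcc4 (chr13:90089559-90089858, minus strand) had 19 bases of it under a peak in the ELS list and 83 in the Standard list.
Dot1l: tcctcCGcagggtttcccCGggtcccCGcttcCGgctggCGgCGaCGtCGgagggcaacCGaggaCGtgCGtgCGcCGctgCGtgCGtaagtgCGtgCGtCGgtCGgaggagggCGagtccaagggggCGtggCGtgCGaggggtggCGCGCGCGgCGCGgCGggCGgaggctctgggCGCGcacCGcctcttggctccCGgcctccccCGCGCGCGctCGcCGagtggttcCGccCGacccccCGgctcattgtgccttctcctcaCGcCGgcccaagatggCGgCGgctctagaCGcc
Dock10: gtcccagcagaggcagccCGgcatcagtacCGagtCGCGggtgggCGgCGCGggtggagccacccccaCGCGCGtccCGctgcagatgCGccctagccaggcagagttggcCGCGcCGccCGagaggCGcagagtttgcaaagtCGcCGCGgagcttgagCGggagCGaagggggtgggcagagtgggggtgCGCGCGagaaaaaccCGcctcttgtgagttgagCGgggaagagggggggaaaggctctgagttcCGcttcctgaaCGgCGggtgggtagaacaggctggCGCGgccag
Oprm1: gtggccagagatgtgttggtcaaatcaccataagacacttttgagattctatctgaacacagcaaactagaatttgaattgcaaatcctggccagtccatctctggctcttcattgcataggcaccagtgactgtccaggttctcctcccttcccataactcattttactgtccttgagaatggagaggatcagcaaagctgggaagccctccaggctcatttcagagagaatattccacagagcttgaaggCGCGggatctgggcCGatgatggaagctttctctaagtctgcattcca
Xrcc4: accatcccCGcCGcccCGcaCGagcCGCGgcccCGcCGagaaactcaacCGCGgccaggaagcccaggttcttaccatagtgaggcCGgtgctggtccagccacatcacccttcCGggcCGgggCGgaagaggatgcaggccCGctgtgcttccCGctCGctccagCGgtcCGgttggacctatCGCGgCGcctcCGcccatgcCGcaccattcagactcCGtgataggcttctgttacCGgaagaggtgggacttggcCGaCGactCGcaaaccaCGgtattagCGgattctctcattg
The windows hold 49 CG dinucleotides for Dot1l, 32 for Dock10, 3 for Oprm1 and 31 for Xrcc4.
A RefSeq promoter was found for 6858 of the 9017 protein-coding genes with a peak in either list. A peak covered some part of the window in 406 of them (5.92%) in the ELS list and in 684 (9.97%) in the Standard list. Of these promoters 360 were covered in both lists, 46 in the ELS list only and 324 in the Standard list only. The median promoter of a gene with a peak held 23 CG dinucleotides and 62.3% G and C, against 7 and 52.7% over all 32851 promoters of the table. The larger set was cut neither to protein-coding genes nor to the promoter nearest a gene's start, so the sets differ in more than peaks. Genes whose covered length was at least 1.5-fold shorter in the ELS list relative to the median gene, by the measure given below, had a median of 20 CG dinucleotides, against 24 in genes within 1.5-fold. Genes at least 1.5-fold longer in the ELS list also lay under 24, with a median of 22.

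The ELS list covered less of the genome than the Standard list, and what it lacked was mostly breadth. It held 106374 distinct peaks over 92.6 Mb, against 117819 peaks over 126 Mb in the Standard list, 9.71% fewer peaks and 26.5% less covered length. The median peak was 478 bp wide in the ELS list and 512 bp in the Standard list, and the mean was 871 bp against 1070 bp. Broad domains differed most. Peaks of 10 kb and over numbered 175 in the ELS list and 645 in the Standard list, and peaks of 5 to 10 kb numbered 1483 against 3121. Peaks under 500 bp were nearly as many, 55345 in the ELS list and 57673 in the Standard list. The median fold enrichment was 1.92 in the ELS list and 1.96 in the Standard list, and folds above 3 were reached by 234 ELS and 2162 Standard peaks. Read depth of the ChIP libraries was not analysed here, and its part in these differences was not tested.

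**Figure D1:**
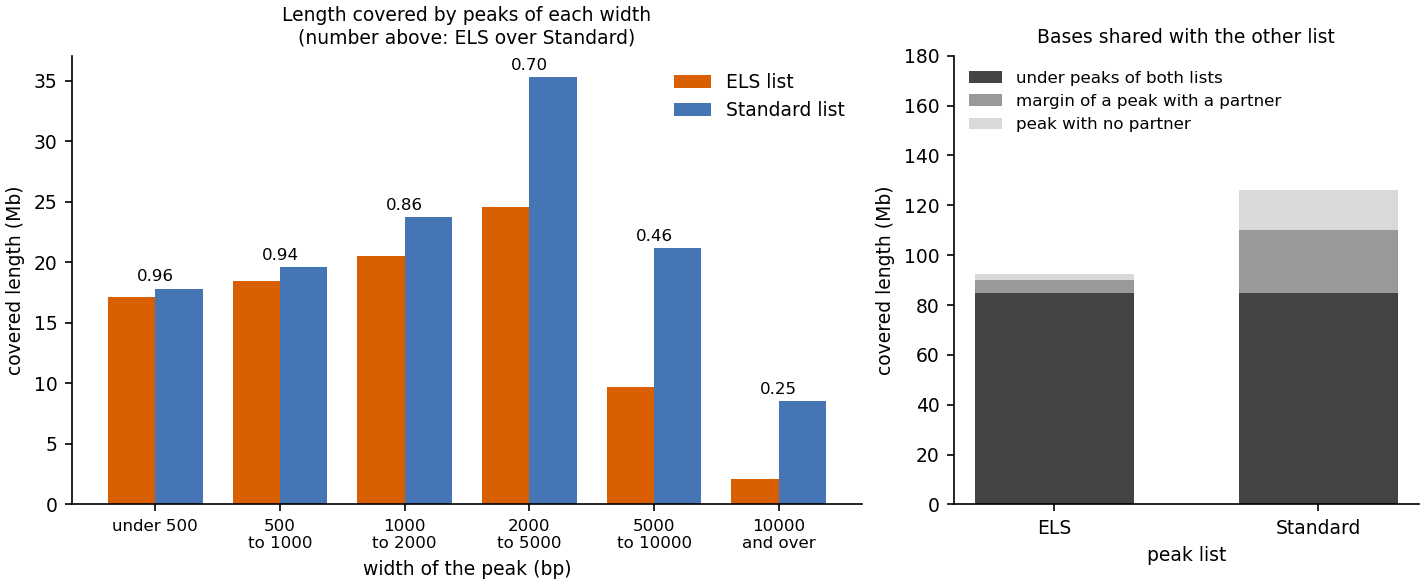
Left, covered length in Mb by width of the peak in bp, with a bar for the ELS list and 1 for the Standard list and their ratio above. Right, the covered length of each list split into bases under peaks of both lists, margins of peaks that have a partner in the other list, and peaks with no partner. The ratio falls to 0.25 for peaks of 10 kb and over, and the margins of the Standard list hold 25.4 Mb.

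Most of the ELS list lay inside the Standard list. With an overlap of at least 1 bp, 90.8% of ELS peaks and 62.6% of Standard peaks had a partner in the other list. The lists shared 84.8 Mb, which is 91.6% of the ELS bases and 67.3% of the Standard bases. The Standard list had a further 25.4 Mb in the margins of peaks with a partner and 15.9 Mb in peaks with none. The ELS list had 5.05 Mb in margins and 2.77 Mb in peaks without a partner. Peaks without a partner were narrow in both lists, with a median of 253 bp in the ELS list and 304 bp in the Standard list. They were also weak, with median folds of 1.76 in the ELS list and 1.82 in the Standard list. All 645 Standard peaks of 10 kb and over met an ELS peak, and 92.9% of their bases were under one. Of the Standard peaks under 500 bp only 36.4% met one.

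Shared domains were narrower and more broken up in the ELS list. Of 47440 peaks that matched 1 to 1, 76.7% were narrower in the ELS list, with median widths of 437 bp in the ELS list and 645 bp in the Standard list. Of the Standard peaks with a partner 25.8% met at least 2 ELS peaks, and the most met was 15. The reverse, an ELS peak that met at least 2 Standard peaks, was found for 5.59% of ELS peaks with a partner.

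The shortfall was spread over the autosomes, and the X chromosome stood apart. On the 19 autosomes the ELS list covered between 0.71 (chromosome 14) and 0.758 (chromosome 17) of the length of the Standard list. The X chromosome had few peaks in either list, 15 over 3.91 kb in the ELS list and 110 over 38.9 kb in the Standard list, against at least 2775 ELS and 3000 Standard peaks on every autosome. Only 11 X-linked protein-coding genes had a peak in the ELS list and 35 in the Standard list. The labels do not say how the authors treated the X chromosome. By the lists' own classes, peaks in gene bodies numbered 95374 in the ELS list and 105743 in the Standard list, a ratio of 0.902. Peaks in gene deserts, regions far from genes, numbered 489 in the ELS list and 754 in the Standard list, a ratio of 0.649.

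Along genes, coverage was highest at the same place in both lists. The ELS to Standard ratio was lower far into the gene, and also around the start site, than near that place. From 1 to 0 kb before the start site 5.29% of bases lay under an ELS peak and 7.66% under a Standard peak. Coverage was highest from 2 to 3 kb inside the gene, at 39.5% in the ELS list and 49.6% in the Standard list, over 8645 genes. It declined from there, to 21.7% in the ELS list and 28.6% in the Standard list from 20 to 21 kb. The ratio of the ELS list to the Standard list was 0.691 from 1 to 0 kb before the start site. Inside the gene the ratio was 0.742 from 0 to 1 kb, 0.796 from 2 to 3 kb and 0.806 from 6 to 7 kb. Further in it was 0.759 from 20 to 21 kb and 0.689 from 60 to 61 kb. In genes of 50 to 100 kb the ratio was 0.828 in the first 10% of the gene and 0.591 in the last 10%, where 1.66% of bases lay under an ELS peak and 2.81% under a Standard peak. In genes over 200 kb it was 0.745 in the first 10% and 0.6 in the last 10%.

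**Figure D2:**
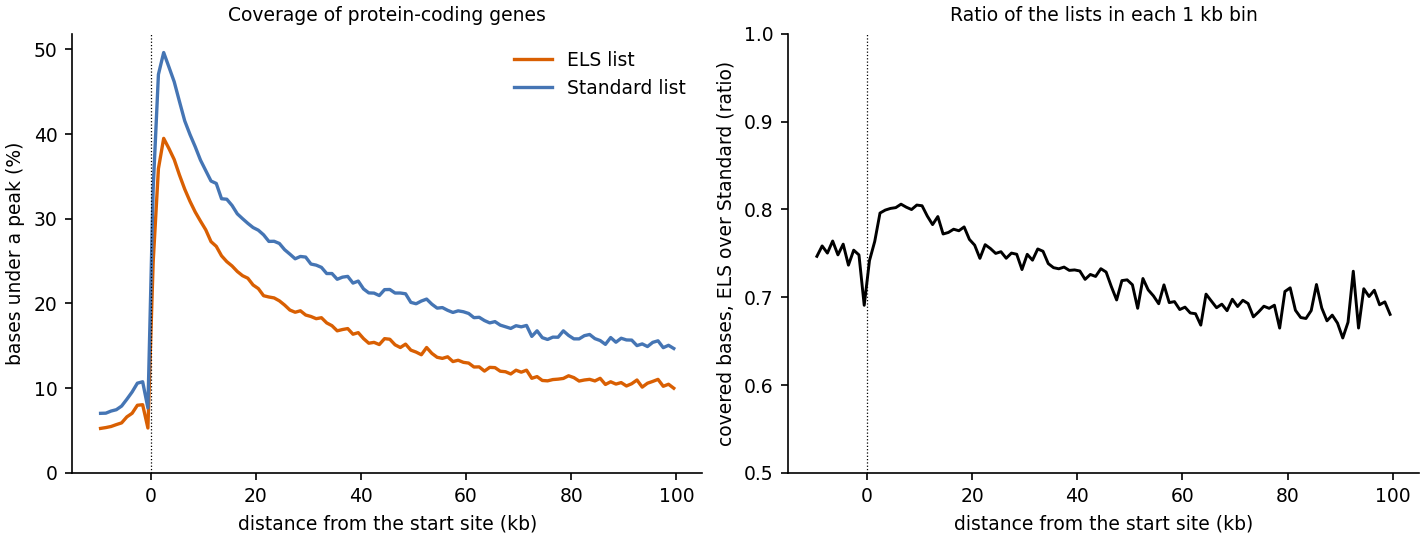
Left, the percentage of bases under a peak in 1 kb bins by distance from the start site in kb, over protein-coding genes with a peak in either list that reach into the bin, for the ELS list and the Standard list. Right, the ratio of ELS to Standard covered bases in the same bins. Coverage is highest from 2 to 3 kb inside the gene, and the ratio is lower in the far gene body and just before the start site than near 6 kb.

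Of 9017 protein-coding genes with a peak in either list, 8063 had one in both, 133 in the ELS list only and 821 in the Standard list only. In the genes with peaks in both, the median number of peaks was 5 in the ELS list and 6 in the Standard list. The gene's highest fold was lower in the ELS list in 7098 of these 8063 genes. Folds belong to their own list, so a lower fold and a different scale of the fold cannot be told apart here. The covered length of a gene, the summed width of its peaks, was compared in the 6987 genes with a mean of at least 1000 bp over both lists, as a log2 ratio with 1000 bp added to each length. It was shorter in the ELS list in 6739 genes and longer in 248. The median gene had an ELS to Standard ratio of 0.774, and the ratio of each gene is given below relative to that median gene, so that 0 marks a gene that followed the list as a whole. On this scale 35 genes (0.501% of those compared) were at least 2-fold higher in the ELS list and 89 (1.27%) at least 2-fold lower. The minimum is on the mean of both lists, so a gene can meet it through the list where it is longer. Of the 35 genes 7 had no peak in the Standard list, and of the 89 genes 10 had none in the ELS list. At 1.5-fold, a size chosen after the values were seen, the genes higher and lower were 83 (1.19%) and 453 (6.48%). Covered lengths in the lists followed each other closely across genes (Spearman correlation 0.97 over 6987 genes, which share the annotation and their own length).

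**Figure D3:**
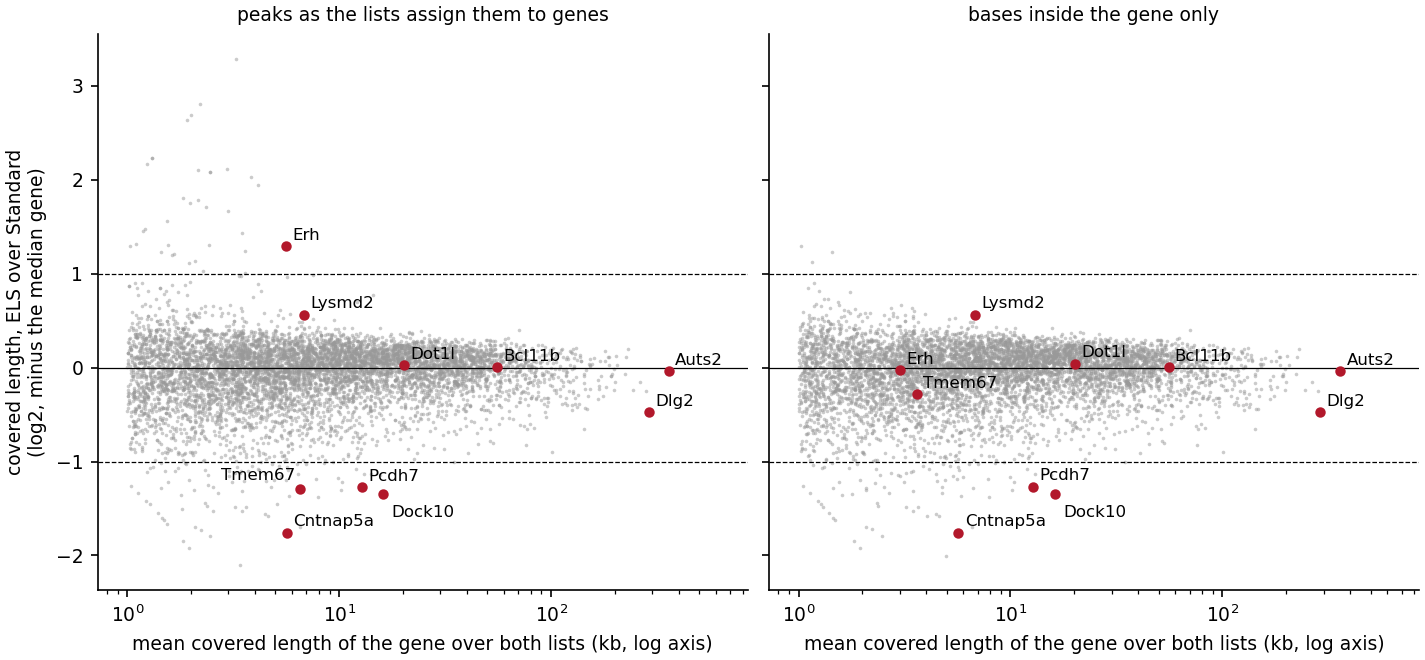
Each point is a protein-coding gene, with its mean covered length over both lists in kb on a log axis and the ELS to Standard ratio of covered length in log2 relative to the median gene. Left, whole peaks as the lists assign them, right, bases inside the gene only, with dashed lines at 2-fold. Erh, at 1.29 on the left, lies at -0.02 on the right, while Cntnap5a, Dock10 and Pcdh7 stay below -1 on both sides.

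Most of the genes called higher in the ELS list had too little coverage inside the gene itself to be compared there. When only bases inside the gene were counted, 3 genes (0.0461% of 6513) were at least 2-fold higher in the ELS list and 83 (1.27%) at least 2-fold lower. Of the 35 genes called higher, 25 had less than 1000 bp inside the gene, 2 remained past 2-fold and 1 lay below the median gene. Over the whole ELS list 91.6% of bases lay under a Standard peak. In 33 of the 35 genes at least 50% of the ELS bases did so. The other 2, which are also the 2 that remained past 2-fold, were Cntn5 and Cntnap5b, long genes of neuronal adhesion proteins with little coverage in either list, named after their values were seen. Cntn5 had 8 peaks over 2151 bp in the ELS list, against 3 over 734 bp in the Standard list (1.23), and 4.74% of its ELS bases lay under a Standard peak. Cntnap5b had 4 peaks over 1661 bp in the ELS list, against 1 of 399 bp in the Standard list (1.3), and 24% of its ELS bases lay under a Standard peak. Of the 89 genes called lower, 77 remained past 2-fold when clipped to the gene, and 7 had less than 1000 bp there. In 3 of the 89 at least 50% of the Standard bases lay under an ELS peak, against 67.3% of bases over the whole Standard list. A low share largely follows from the call itself, since these genes were picked for short ELS coverage, so no conclusion is drawn from it.

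Erh, which encodes a small conserved nuclear protein, was the only gene the naming rule returned as higher (chr12:80634022-80644341 in the lists). Its assigned peaks covered 7.67 kb in the ELS list and 3.57 kb in the Standard list, 1.29 relative to the median gene. The added length was a peak of 5195 bp upstream (chr12:80644439-80649634), whose midpoint lies 2695 bp before the start site and which is also listed for the neighbour Slc39a9. The Standard list has a wider peak of 7078 bp at the same place (chr12:80644397-80651475), but its midpoint lies 3595 bp before the start site and it is not listed for Erh. Inside the gene itself Erh had 2.48 kb in the ELS list and 3.57 kb in the Standard list, which is -0.02 relative to the median gene.

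Tmem67, which encodes a membrane protein of the ciliary transition zone, was the only gene returned as lower (chr4:12039645-12090020), and it mirrors Erh. It was assigned 2.61 kb in the ELS list and 10.4 kb in the Standard list, -1.29 relative to the median gene. A Standard peak of 5946 bp (chr4:12089832-12095778) had its midpoint 2785 bp before the start site and was listed for it, while the ELS peak of 6464 bp at the same place (chr4:12090382-12096846) had its midpoint 3594 bp before the start site and was not. Inside the gene the value was -0.29. Leaving out predicted genes, which were counted but not named, the genes with the longest length in the ELS list and no Standard peak were Myl4, Rhbdd3 and Tubd1. Myl4, a myosin light chain gene, had 1 ELS peak of 4.43 kb, Rhbdd3 1 of 3.99 kb and Tubd1, a tubulin gene, 1 of 3.82 kb. All of these bases were also under Standard peaks, and none lay inside the gene in either list.

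Some genes with a mean of at least 5 kb had more coverage in the ELS list inside the gene. These genes were chosen after their values were seen. Ninl, which encodes a ninein-like protein of the centrosome, was the only one of them past 2-fold inside the gene, with 1.7 kb in the ELS list and 0.604 kb in the Standard list (1.12). With the peaks assigned to it outside the gene, it had 6.97 kb in the ELS list and 6.73 kb in the Standard list (0.41), and only with these did it reach a mean of 5 kb. Of these lengths 75.6% in the ELS list and 91% in the Standard list were also listed for the neighbour Nanp. Lysmd2 had 7.34 kb in the ELS list and 6.29 kb in the Standard list, with 8 peaks in each, 0.56 relative to the median gene. Psmd12, a subunit of the proteasome's regulatory particle, had 5.8 kb in the ELS list and 5.1 kb in the Standard list, a value of 0.53. Adcy1, a calcium-stimulated adenylyl cyclase of neurons, had 6.94 kb and 18 peaks in the ELS list, against 6.35 kb and 18 peaks in the Standard list. Ehd3, a regulator of endosomal recycling, had 6.73 kb in the ELS list and 6.13 kb in the Standard list. Xrcc4, a DNA end-joining factor whose promoter is printed above, had 9.27 kb in the ELS list and 5.72 kb in the Standard list as assigned, but 0.05 relative to the median gene inside the gene.

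The genes called lower had a greater median length than the genes called higher. Genes at least 2-fold lower had a median length of 121 kb, against 13.1 kb in those 2-fold higher and 36.4 kb in all genes compared. Of the 35 genes called higher, 25 had less than 1000 bp inside the gene. The 2 that remained past 2-fold inside the gene, Cntn5 and Cntnap5b, are long genes. The examples here had the lowest values among genes with a mean of at least 5 kb, and were chosen after their values were seen. Cntnap5a, a cell adhesion protein related to neurexins (chr1:115684756-116587323), had 4 peaks over 1.49 kb in the ELS list, against 28 peaks over 9.87 kb in the Standard list. Its value was -1.76, the lowest of these genes. Dock10, a guanine nucleotide exchange factor (chr1:80501073-80758448), had 17 peaks over 7.01 kb in the ELS list, against 43 peaks over 25.3 kb in the Standard list. Of the Standard bases, 25.1% at Dock10 and 10.4% at Cntnap5a lay under an ELS peak. The protocadherin gene Pcdh7 (chr5:57717967-58133230) had 18 peaks over 5.69 kb in the ELS list, against 48 over 19.8 kb in the Standard list.

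Further genes with low values also had fewer peaks in the ELS list. Pcdh9, another protocadherin, had 8 peaks over 3.09 kb in the ELS list, against 18 over 12.8 kb in the Standard list. Ptprd, a receptor tyrosine phosphatase that organises synapses, had 5 peaks over 1.69 kb in the ELS list, against 25 over 8.5 kb in the Standard list. Sorcs1, a sorting receptor, had 8 peaks over 2.7 kb in the ELS list, against 25 over 10.6 kb in the Standard list. Sil1, an exchange factor for the chaperone BiP, had 5 peaks over 1.92 kb in the ELS list, against 21 over 11.2 kb in the Standard list. The highest folds at these genes were modest in both lists, such as 2.13 in the ELS list and 2.5 in the Standard list at Dock10. Palm2 and Vat1l were also among the lowest, at -1.3 and -1.37.

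**Figure D4:**
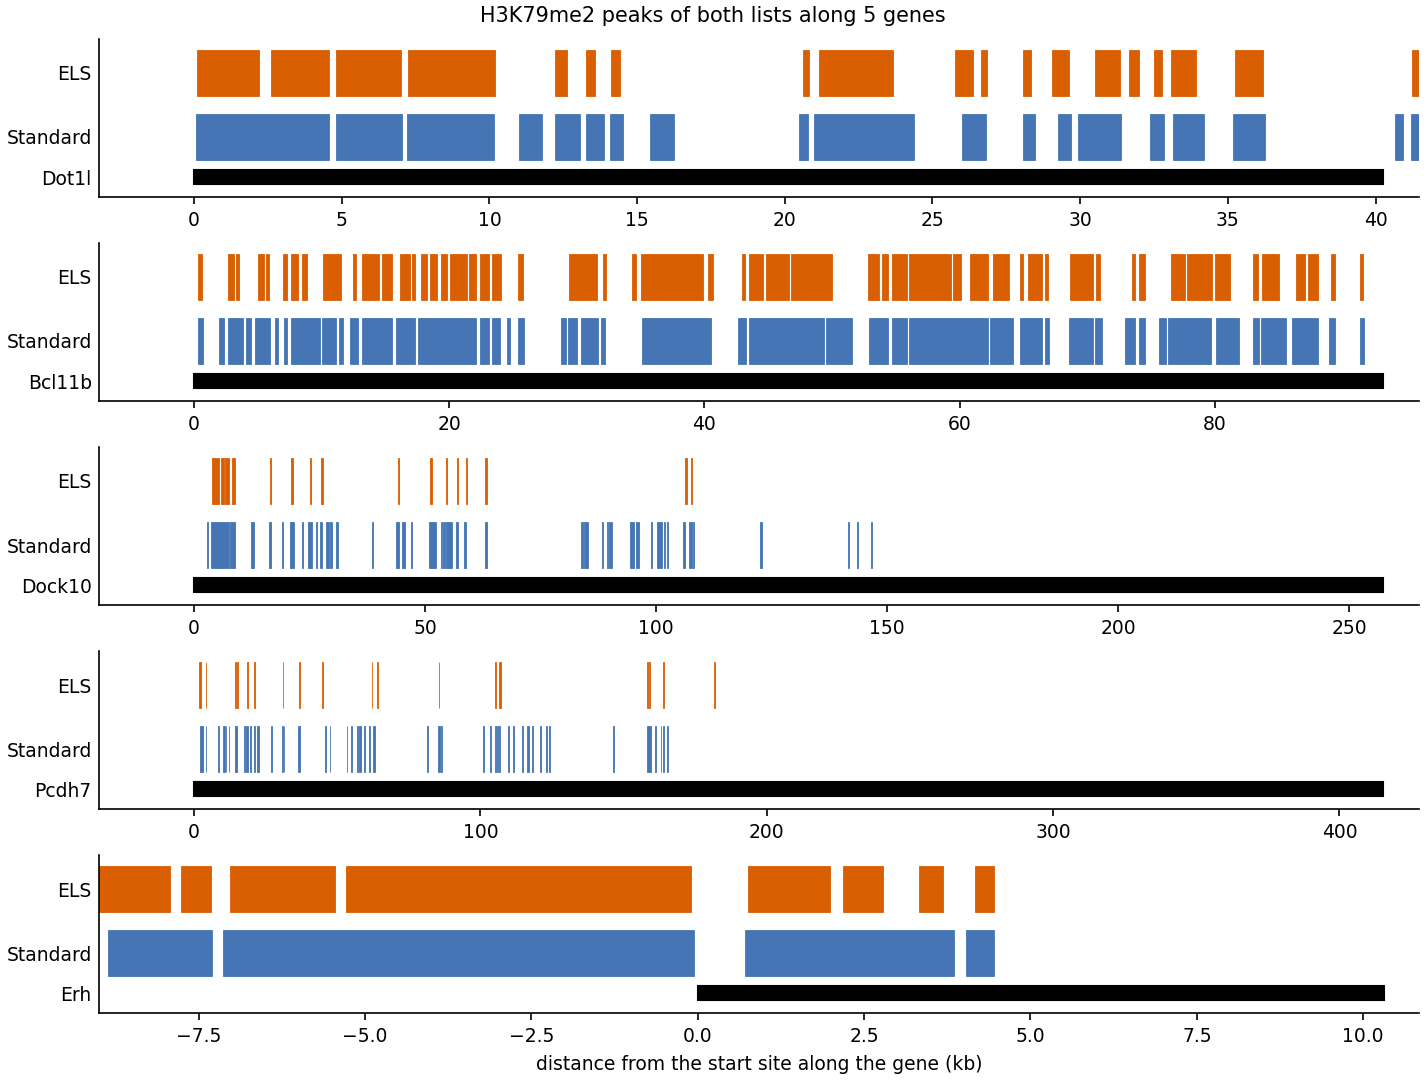
Peaks of the ELS list (upper row) and the Standard list (lower row) along 5 genes, by distance from the start site in kb, with the gene as a black bar. Dot1l and Bcl11b kept most of their domains, Dock10 and Pcdh7 had 17 and 18 ELS peaks against 43 and 48 Standard peaks, and the broad peak upstream of Erh is in both lists.

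These losses depended on how the lists were made equal. When the Standard list was cut to its 44880 strongest peaks, so that it covered the same length as the whole ELS list, Dock10 stood at 0.45, Pcdh7 at 0.79, Pcdh9 at 1.68, Ptprd at 0.58 and Sorcs1 at 1.65 relative to the median gene, the opposite direction. Vat1l stood at -0.45, and Cntnap5a fell under the length minimum. That setting removes every Standard peak with a fold under 2.06 and keeps ELS peaks with folds down to 1.31. Taking the 50000 strongest peaks of each list instead, a setting added after the data were seen, gave 56 genes higher and 226 lower. Of the reported genes, 26 of the 35 and 23 of the 89 were among these.

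Genes with little coverage and weak peaks lacked the larger share in the ELS list. The genes were split into 5 classes of equal size by their highest fold, averaged over both lists. In the lowest class the covered length was 46.9% lower in the ELS list (2752 kb in ELS and 5188 kb in Standard), and their median was -0.22. In the highest class it was 18.6% lower (41743 kb in ELS and 51270 kb in Standard), and their median was 0.11. The medians were 0.25 and -0.03 with the Standard list cut by fold. By gene length, the longest of 5 classes had a median of -0.13 and the shortest 0.06. Among genes in the lowest of 3 classes by percentage covered, the medians were -0.01 in short, -0.11 in middle and -0.25 in long genes. Across the 6987 genes, which share their libraries, the Spearman correlation of the ratio was 0.37 with the highest fold, 0.33 with the percentage of the gene covered and -0.23 with gene length.

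The gene for the writer of the mark followed the list as a whole. Dot1l (chr10:80755206-80795461) had 18 peaks in each list, over 17.7 kb in the ELS list and 22.8 kb in the Standard list, 0.03 relative to the median gene. Its highest fold was 3.08 in the ELS list and 3.8 in the Standard list. Kdm2b, a demethylase of H3K36 also reported to act on H3K79, had 4.89 kb in the ELS list and 5.94 kb in the Standard list, at 0.13. Of 19 genes for DOT1L partners and elongation factors, 15 had a peak in each list and 14 passed the length minimum. Their median was 0.02, 5 of the 14 lay below the median gene, and none was past 1.5-fold. Ell, an elongation factor, had 34.5 kb in the ELS list and 36.6 kb in the Standard list (0.29), and Mllt10, which encodes the DOT1L partner AF10, had 44.2 kb in the ELS list and 67 kb in the Standard list (-0.22). Of 18 genes for mediator and RNA polymerase II, 4 lay below the median gene, and their median was 0.13, or -0.05 with the Standard list cut by fold. Med24 was the lowest of these (-0.48).

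Genes of synaptic and neuronal signalling mostly lay below the median gene, where 50% of all genes lie by construction, and these lists hold long genes. In the longest of 5 classes of all genes by length (101 kb and over), 69.2% lay below the median gene and 13.2% were at least 1.5-fold lower, against 6.48% of all genes. Median gene lengths were 411 kb in glutamate receptors, 277 kb in axon guidance and 108 kb in GABA signalling. Whether the lists differ from other genes of their length was not tested. All 16 glutamate receptor genes past the length minimum lay below it, with a median of -0.3 and 772 kb covered in the ELS list against 1225 kb in the Standard list. None was past 2-fold and 2 were past 1.5-fold. Grik4, a kainate receptor subunit, had 10.2 kb in the ELS list and 23.7 kb in the Standard list (-0.77). Of 21 axon guidance genes 20 lay below the median gene and 8 were at least 1.5-fold lower, with a median of -0.31. The netrin receptor gene Dcc had 45.6 kb in the ELS list and 105.8 kb in the Standard list (-0.83), and the ephrin receptor gene Epha6 had 4.1 kb in the ELS list and 11.9 kb in the Standard list (-0.96). Of 13 genes of GABA signalling 10 lay below the median gene and 5 were at least 1.5-fold lower, with a median of -0.35. Gabra2, a GABA-A receptor subunit, had 13 peaks over 5.47 kb in the ELS list, against 36 over 15.4 kb in the Standard list (-0.97).

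In further lists of synaptic and signalling genes the medians also lay below 0. Of 22 potassium channel genes 16 lay below the median gene, with a median of -0.22, and Kcnh5, a voltage-gated channel, was past 2-fold at 0.721 kb in the ELS list and 4.36 kb in the Standard list. Of 16 genes of presynaptic release 12 lay below it, with a median of -0.22, and of 15 postsynaptic scaffold genes 11, with a median of -0.15. Nlgn1, the postsynaptic adhesion protein neuroligin 1, had 61 peaks over 23.3 kb in the ELS list, against 133 over 58 kb in the Standard list. Of 6 genes of neuropeptide and stress signalling 5 lay below it and 2 were past 2-fold, with a median of -0.4. These were the gene of the mu opioid receptor, Oprm1, with 1.12 kb in the ELS list and 5.84 kb in the Standard list, and that of the neuregulin receptor, Erbb4, with 0.185 kb in the ELS list and 2.71 kb in the Standard list. Kcnh5 and Erbb4 met the length minimum only through their Standard peaks. With the Standard list cut by fold the medians turned to the other side in glutamate receptors (0.25), axon guidance (0.28), GABA signalling (0.76), potassium channels (0.17), presynaptic release (0.1), the postsynaptic scaffold (0.05) and neuropeptides (0.21). With the 50000 strongest peaks of each list they were -0.49, -0.31, -0.57, -0.26, -0.32, -0.12 and -0.26 in the same order.

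**Figure D5:**
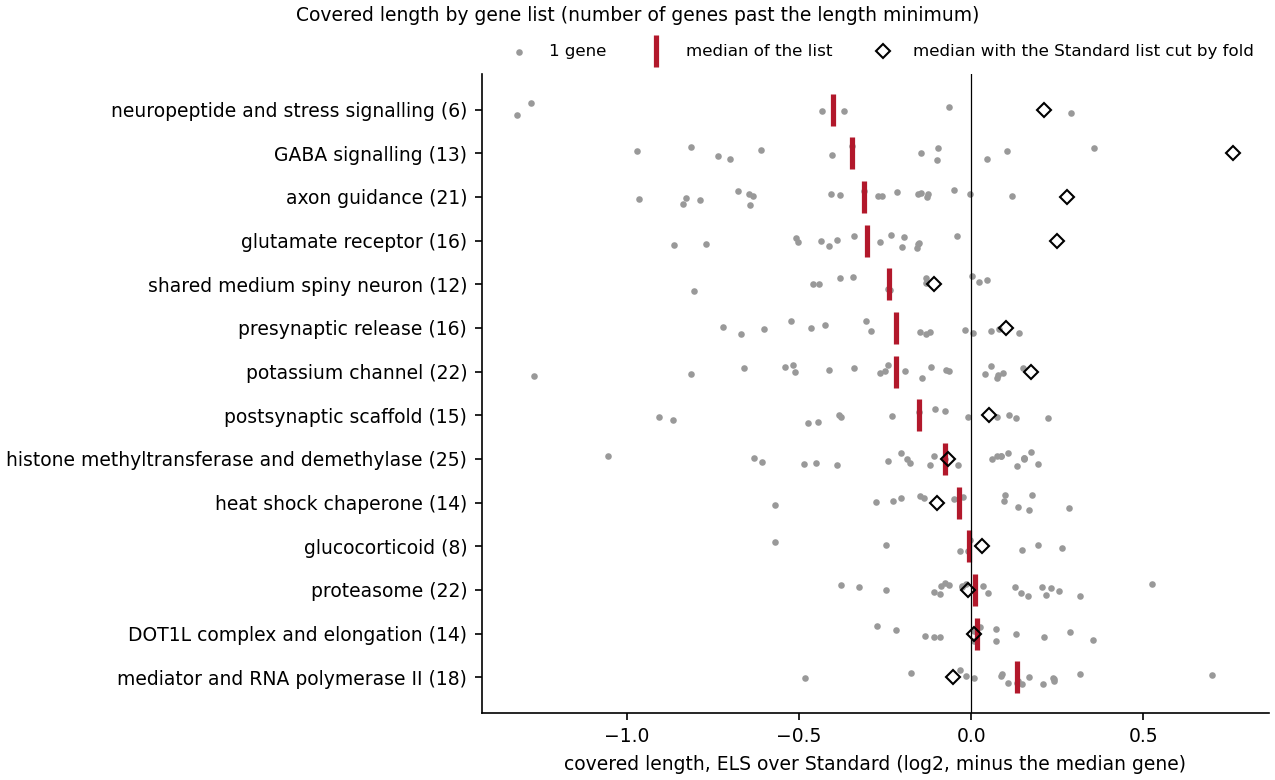
Covered length by gene list, as the ELS to Standard ratio in log2 relative to the median gene. Grey points are genes past the length minimum, red bars the median of the list, and open diamonds the median with the Standard list cut by fold. All 16 glutamate receptor genes lie left of 0, while the diamond of that list lies at 0.25.

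Housekeeping and stress hormone lists stayed near 0. Of 22 proteasome genes 11 lay below the median gene, at a median of 0.01, and of 14 heat shock chaperones 8, at -0.04. Of 25 histone methyltransferase and demethylase genes 14 lay below it, at -0.08, and 1 was past 2-fold, the X-linked H3K27 demethylase gene Kdm6a with 0.258 kb in the ELS list and 2.37 kb in the Standard list. Kdm6a met the length minimum only through its Standard peaks. Of 8 glucocorticoid pathway genes 5 lay below the median gene, at a median of -0.01. Nr3c1, the glucocorticoid receptor, had 48.3 kb in the ELS list and 54.7 kb in the Standard list (0.19). Fkbp5, a co-chaperone induced by glucocorticoids, had 25 peaks over 11.7 kb in the ELS list and 23 over 18.5 kb in the Standard list (-0.25). Sgk1, a kinase induced by glucocorticoids, had 28.4 kb in the ELS list and 55.4 kb in the Standard list (-0.57).

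Genes shared by medium spiny neurons had peaks more often than the best-known markers of these neurons. Which cells the peaks came from was not tested. The shared genes past the length minimum had a median length of 141.5 kb, against 36.4 kb in all genes compared. Of 15 genes shared by medium spiny neurons 14 had a peak in the ELS list and 15 in the Standard list. Over all protein-coding genes, 9017 had a peak in either list and 12309 had none. Bcl11b, a transcription factor of these neurons, had 54 peaks over 48.5 kb in the ELS list and 44 over 62.9 kb in the Standard list, at 0. Pde10a, their phosphodiesterase, had 52.3 kb in the ELS list and 74.5 kb in the Standard list (-0.13). Foxp1, a striatal transcription factor, had 155.9 kb in the ELS list and 238 kb in the Standard list (-0.24), of which 55.5% in the ELS list and 54.9% in the Standard list was also listed for the overlapping Gm20696. Meis2, another transcription factor, had 32.2 kb in the ELS list and 73.9 kb in the Standard list, and was the only one of the 12 shared genes past the minimum that was 1.5-fold lower (-0.81). The median of the 12 was -0.24, and -0.11 with the Standard list cut by fold.

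The defining markers of D2-type neurons (Drd2, Adora2a, Penk) and D1-type neurons (Drd1, Tac1, Pdyn) had no peak in either list, nor had the activity-induced genes Fos, Egr1 and Bdnf. Ppp1r1b, which encodes DARPP-32, had 0.237 kb in the ELS list and 1.57 kb in the Standard list, under the length minimum. Of 8 D2-type and 8 D1-type neuron genes, 1 of each had a peak in the ELS list and 2 of each in the Standard list. Markers of other cell types also had few peaks, and the gene lengths of markers without a peak were not compared. None of 12 interneuron, 7 oligodendrocyte precursor, 12 endothelial and 8 cortical neuron genes had a peak in either list, nor any of 20 genes not expected in brain. Each list had a peak at 2 of 12 astrocyte genes, 2 of 14 myelin genes and 2 of 12 microglia genes. Slc1a2, the glial glutamate transporter, had 0.661 kb in the ELS list and 3.06 kb in the Standard list (-0.92), and met the length minimum only through its Standard peaks. Mbp, a structural protein of myelin, had 6.89 kb in the ELS list and 14 kb in the Standard list (-0.55). The microglial receptor gene Cx3cr1 had peaks in both lists, all of them also listed for neighbouring genes.

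Predicted genes aside, Auts2, a neurodevelopmental gene, had the longest covered length in both lists, 308 kb in ELS and 410.3 kb in Standard (-0.04). Celf2, an RNA-binding protein, had 222 kb in the ELS list and 341 kb in the Standard list (-0.25). Dlg2, the scaffold protein PSD-93, had 400 peaks over 206.5 kb in the ELS list, against 556 over 372 kb in the Standard list (-0.47). Arid1b, a subunit of a chromatin remodelling complex, had 216 kb in the ELS list and 244 kb in the Standard list (0.2). The highest fold in the ELS list was at Sfswap, a splicing regulator, with 3.82, against 4.14 in the Standard list. The highest in the Standard list was 6.37 at Mettl21a, a lysine methyltransferase, where the ELS list reached 1.53. Next came a peak shared by Vti1b and Arg2, with 3.42 in the ELS list and 5.99 in the Standard list.

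Of the 821 genes with a peak in the Standard list only, 83 had at least 1000 bp. Among those with the longest length was the X-linked zinc finger gene Zfx, with 9 peaks over 3.66 kb, on the chromosome that was nearly empty in the ELS list. Cnrip1, a protein that binds the cannabinoid receptor CB1, had 10 peaks over 3.1 kb, 48.1% of which was also listed for Plek. Leaving out genes of chromosomes X and Y, a setting added after the data were seen, left 35 genes 2-fold higher and 83 lower.

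RNA of the same genes was set beside the lists from other libraries, ELS GFP against Standard GFP. Depth was 1.76 to 11.1 M counts in ELS GFP libraries and 0.314 to 9.8 M in Standard GFP libraries, 3 of which held under 1 M. RNA passed the filter for low counts in 89% of the 9017 genes with a peak and in 37.3% of 12309 protein-coding genes without one. No gene of 14016 (0%) was called with edgeR's quasi-likelihood test at an adjusted p under 0.05, and 1644 (11.7%) had an unadjusted p under 0.05. DESeq2 called 88. The 82 genes with RNA among those at least 2-fold lower in covered length had a median RNA log2 fold change of -0.04, and 3 of them (3.66%) had an unadjusted p under 0.05. The median was -0.06 over all 6364 genes with both values. The Spearman correlation between the covered length ratio and the RNA fold change across these genes was 0.005. Markers of several cell types had lower RNA values in ELS GFP libraries without passing the test. Log2 fold changes were below 0 in 7173 (51.2%) of all 14016 genes tested. Among markers they were below 0 in 10 of 10 astrocyte genes (median -0.6), 13 of 14 myelin genes (-0.59) and 9 of 10 microglia genes (-0.52). They were also below 0 in 6 of 7 D1-type neuron genes (-0.83) and 12 of 15 shared medium spiny neuron genes (-0.63). Other lists were more mixed, with 3 of 5 D2-type neuron genes (-0.29) and 3 of 6 oligodendrocyte precursor genes (-0.29) below 0. The same count was 4 of 8 in cortical neuron genes (0.03), 5 of 11 in interneuron genes (0.3) and 3 of 12 in endothelial genes (0.25). The summed level of the astrocyte genes ranged from 1209 to 2870 CPM (counts per 1 M counts) in ELS GFP libraries and from 1856 to 3303 in Standard GFP libraries. That of the myelin genes ranged from 418 to 1114 CPM in ELS GFP and from 592 to 1061 in Standard GFP, and that of the microglia genes from 623 to 1279 in ELS GFP and from 449 to 2908 in Standard GFP. The groups overlapped in each of these sums, none of these genes had an adjusted p under 0.05 with edgeR, and the part of cell makeup in the RNA values was not tested. These libraries carry a GFP label that the ChIP libraries do not, and no label ties their animals to those of the ChIP libraries.

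The RNA groups overlapped at Dot1l and at 5 genes with low covered length in the ELS list. Dot1l RNA ranged from 15.4 to 54.2 CPM in ELS GFP libraries (median 35) and from 10.6 to 48.5 in Standard GFP libraries (median 36.3). Its log2 fold change was 0.05 (SE 0.27, edgeR adjusted p = 0.974). Dock10 RNA ranged from 75.7 to 212 CPM in ELS GFP (median 129.5) and from 84.9 to 671 in Standard GFP (median 136), a log2 fold change of -0.66 (SE 0.35, edgeR adjusted p = 0.46). Pcdh7 ranged from 126 to 222 CPM in ELS GFP (median 171) and from 113 to 519 in Standard GFP (median 195), at -0.44 (SE 0.22, edgeR adjusted p = 0.427). Cntnap5a ranged from 44.1 to 632 CPM in ELS GFP (median 132) and from 75.6 to 186 in Standard GFP (median 139), at 0.5 (SE 0.38, edgeR adjusted p = 0.676). Pcdh9, at -0.21 (SE 0.18, edgeR adjusted p = 0.743), ranged from 659.7 to 1425 CPM in ELS GFP and from 742 to 1558 in Standard GFP. Oprm1, at 0.04 (SE 0.41, edgeR adjusted p = 0.99), ranged from 6.54 to 25.9 CPM in ELS GFP and from 1.76 to 23.1 in Standard GFP. None of these differences passed the test.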

How the data were processed

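The authors deposited 1 annotated H3K79me2 peak list per rearing group. Per the file headers each line gives a peak, its fold enrichment (a ratio), its q-value and a gene. The labels and headers do not say which program called the peaks, what the fold is relative to, or how the 9 libraries of a group were pooled. The build was mm10, per the submitters' processing notes. Starts and ends are printed as the lists give them. Annotation lines (432179 ELS, 475994 Standard) were reduced to distinct peaks. Widths were summed per protein-coding gene ID, and the log2 ratio with 1000 bp added was centred on the median gene. Clipped lengths count bases inside the gene's longest transcript in the lists. Overlap was computed with Python 3.11.15, pandas 2.3.3 and numpy 2.4.6, and the counts were equal to those of bedtools 2.31.1.

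RNA came as raw counts, which the authors deposited without normalization. The submitters' processing notes name FastQC, HISAT2, featureCounts and DESeq2, but not whether counting used the strand, so reads of overlapping genes cannot be told apart. For RNA, edgeR's quasi-likelihood test (version 4.0.16 in R 4.3.3, with TMM and filterByExpr) was run in 1 fit of 32 libraries with a mean per group, and Benjamini-Hochberg adjustment. DESeq2 1.42.0 was an alternative. An SE is the fold change over the square root of the test's F. Replicates are separate samples in the labels. Where these share animals, p-values measure only the spread between samples. The scripts were tested on simulated data.

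The members and gene lists were chosen with earlier results of these data known. Up to 10 genes per direction were named when they had a mean of at least 5000 bp and were past 2-fold under 3 centrings, by the median, by the 500 genes of like length and with the Standard list cut by fold. This returned 1 gene each way. Also named were the 3 longest, strongest and list-specific genes per list, 21 fixed genes and up to 4 members of each gene list. Predicted genes (Gm numbers, Rik names) were counted but not named. Some genes that the rule picks are left out of the text. Genes outside this rule are marked as picked with their values in view.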

Additional observations from a re-analysis of the deposited data

Results flagged for a closer look

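In 5 of 12 groups of 8 RNA libraries checked, 1 library stood apart from the others of its group in counts per 1 M counts (CPM) by its gap to the nearest one, which chance does in about 1 of 20 groups. Dot1l was at 10.6 CPM in Standard GFP replicate 5, the lowest of its group, with the next at 30.8. Dock10 was at 671 in Standard GFP replicate 6, with the next at 210.2. In ELS GFP replicate 2 Pcdh9 was at 1425, with the next at 1017, and Cntnap5a at 632, with the next at 231. Oprm1 was at 25.9 in ELS GFP replicate 3, with the next at 15.5. Standard GFP replicate 5 held under 1 M counts. No call rests on these libraries, since none of the 5 genes passed edgeR's test.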

How the results depend on the processing

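Each list is 1 value per group with no replicate, so nothing here measures animals. The median gene ratio was under 1 in every setting run (0.732 to 0.965). The total covered length was shorter in the ELS list in each setting except with the Standard list cut by fold, which makes the totals equal (92.6 Mb each) and in which 2630 genes were longer and 3746 shorter in the ELS list. The counts of genes past 2-fold moved with the settings. Genes higher and lower, 35 and 89 as reported, were 55 and 283 with 200 bp added, and 19 and 14 with 3000 bp. They were 1 and 29 with a minimum of 5000 bp, 56 and 226 with the 50000 strongest peaks of each list, and 310 and 17 with the Standard list cut by fold. Among the reported genes were 26 and 23 of those with the 50000 strongest peaks, and 30 and 8 of those under the cut. With no minimum 53 were higher, with clipped peaks 3, and with both lists at or above their common median fold 338 were lower. The cut turned Dock10 (0.45), Palm2 (2.1), Pcdh7 (0.79), Pcdh9 (1.68), Ptprd (0.58) and Sorcs1 (1.65) to the ELS side, and clipping turned Erh (-0.024). The cut removes weak Standard peaks and no ELS peaks. It also moved the median of 14 of 19 gene lists with a value to the other side of 0, while a filter on both lists at their common median fold moved 0 of 18. An overlap of at least 50% of both peaks was met by 40.02% of ELS and 36.1% of Standard peaks. The totals kept their direction, and their ratio stayed within 1.5 times the reported one, at q of at most 0.001 and at or above the common median fold. For RNA, with edgeR 0 genes were called, 88 with DESeq2, 7 without libraries under 1 M counts, 0 with no filter on low counts (4152 at an unadjusted p under 0.05) and 0 with only the 2 groups (1156 at an unadjusted p under 0.05). Without libraries under 1 M counts Dot1l moved to -0.055 and Oprm1 to -0.22, and the cause was not tested. No paired analysis was possible because each rearing group has 1 peak list and the RNA groups share no replicate number in the labels.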
